A study of Mus musculus with 6 samples.

Results

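Genes of rod and cone photoreceptors were followed in tissue of the mouse eye wall, which holds the retinal pigment epithelium (RPE) together with choroid and sclera. The set of 40 genes, named by symbol, holds 11 genes used mainly by rods, 10 used mainly by cones and 19 used by both, and 39 of the 40 had a probe set with exactly 1 gene symbol, against 22180 genes measured in all. Each of the 39 had 1 such probe set, so that no choice between probe sets was needed, and the rod factor gene Nr2e3 was not analysed here. The tissue came from 3 samples of 5XFAD mice heterozygous for the transgene and 3 samples of non-transgenic wild-type littermates, all aged 12 months and untreated, with 1 array per sample. The 5XFAD line carries human amyloid precursor protein and presenilin 1 with familial Alzheimer's disease mutations under the neuronal Thy1 promoter, so the RPE itself is not the cell type that the promoter targets. The sources used here do not give the strain background, the dissection or whether each sample came from 1 animal. Some 5XFAD colonies are known to segregate a retinal degeneration allele of Pde6b, a rod gene of this set. Whether these mice carried it is not given either, and its part in the rod values below was not tested. The p-values therefore refer to the variation among these samples, part of which may be technical.

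Rods serve dim light and cones serve daylight and colour. In both, light activates an opsin, the opsin activates the G protein transducin, transducin activates a cyclic GMP phosphodiesterase, and the fall in cyclic GMP closes a cation channel of the outer segment. Rods and cones build most of these steps from separate paralogous genes, while guanylate cyclases, disc rim proteins and much of the shut-off machinery are used by both. Photoreceptors belong to the neural retina, whose outer segments touch the RPE, and they are not a cell type of the RPE, choroid or sclera. The values below give the signal of these genes in each preparation. In bulk tissue fewer photoreceptor cells and less RNA per cell cannot be told apart. The labelled tissue was checked by 14 RPE genes, whose mean log2 intensity lay between 10.34 and 10.86 in the 6 arrays. The mean of all genes lay between 6.07 and 6.08. Of the 14 genes 1, Best1, was below the median mean intensity of all genes, at percentile 33.7.

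The homeodomain factor CRX acts on many photoreceptor promoters, and its core site was counted as a description. Of the 39 measured genes 19 had their lowest values in 5XFAD replicate 3 and wild type replicate 2 within their groups, called the array pattern here. The part of CRX in that pattern was not tested. RefSeq promoter windows (GRCm38.p6, 250 bases before to 50 after the gene start) were at hand for 29 of the 40 genes, in 30 windows. The letters TAATCC occurred on either strand in 12 of these 30 windows (40%), against 2320 of all 32851 windows of that length (7.06%). They were found in 4 of 8 rod windows, 7 of 15 windows of genes used by both and 1 of 7 cone windows. The letters TGCTGA, part of the element bound by MAF family factors such as the rod factor NRL, occurred in 7 of the 30 windows (23.3%) and in 19.5% of all windows. A match describes the letters in the window and is no measured binding. The 150 bases before the gene start are shown for 3 genes that followed the common array pattern (Sag, Gngt1, Rbp3) and for 3 that did not follow it and had the smallest p among the genes with a window (Gucy2f, with a positive difference, and Slc24a1 and Rom1, with a negative one). Capitals mark TAATCC or its reverse complement GGATTA, and these stretches hold no TGCTGA on either strand.
Sag, chr1:87803530-87803679, plus strand: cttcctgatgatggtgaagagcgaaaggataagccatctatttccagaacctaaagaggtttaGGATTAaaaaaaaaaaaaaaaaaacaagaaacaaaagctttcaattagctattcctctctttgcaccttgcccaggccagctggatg
Gngt1, chr6:3993858-3994007, plus strand: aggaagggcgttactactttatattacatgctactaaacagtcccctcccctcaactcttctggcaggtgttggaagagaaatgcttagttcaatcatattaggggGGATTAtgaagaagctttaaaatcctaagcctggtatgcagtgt
Rbp3, chr14:33953853-33954002, plus strand: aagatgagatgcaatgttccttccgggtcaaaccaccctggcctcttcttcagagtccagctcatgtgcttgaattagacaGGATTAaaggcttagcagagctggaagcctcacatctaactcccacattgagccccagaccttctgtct
Gucy2f, chrX:142196937-142197086, minus strand: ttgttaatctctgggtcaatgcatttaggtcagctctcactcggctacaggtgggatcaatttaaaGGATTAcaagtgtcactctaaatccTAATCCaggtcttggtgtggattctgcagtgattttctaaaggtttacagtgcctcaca
Slc24a1, chr9:64951621-64951770, minus strand: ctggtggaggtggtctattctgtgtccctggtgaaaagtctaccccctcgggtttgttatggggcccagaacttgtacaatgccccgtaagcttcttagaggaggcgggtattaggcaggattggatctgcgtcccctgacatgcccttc
Rom1, chr19:8929357-8929506, minus strand: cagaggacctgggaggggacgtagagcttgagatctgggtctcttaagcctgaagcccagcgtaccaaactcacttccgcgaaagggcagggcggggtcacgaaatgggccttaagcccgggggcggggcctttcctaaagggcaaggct
The windows of Sag, Gngt1 and Rbp3 each carry 1 marked match and that of Gucy2f carries 2, whereas those of Slc24a1 and Rom1 carry none. These printed genes do not stand for the rest. Of the 13 genes with a window that followed the array pattern 6 held TAATCC (46.2%) and the others, Pde6b, Prph2 and Pdc among them, did not. Of the 15 measured genes with a window that did not follow it, 6 held it too (40%), among them Abca4, Cngb1 and Gnat2.

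The leading feature of the rod genes was a large spread between arrays of the same genotype. Gnat1, the rod transducin alpha subunit, had a log2 intensity of 9.34, 8.63 and 7.04 in 5XFAD replicates 1 to 3 and of 9.28, 7.30 and 8.89 in wild type replicates 1 to 3. The array of lowest signal in each group, 5XFAD replicate 3 and wild type replicate 2, lay 4.93-fold and 3.92-fold below the highest of its group, and the groups overlapped. Sag, the rod arrestin that stops the activated opsin, stood at 7.79, 7.15 and 6.23 in 5XFAD and at 8.01, 6.06 and 7.50 in wild type. Its lowest arrays were the same as those of Gnat1. The within-group standard deviation of Gnat1 (1.11 log2 units) lay at percentile 99.95 of all genes and that of Sag (0.907) at percentile 99.88.

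**Figure D1:**
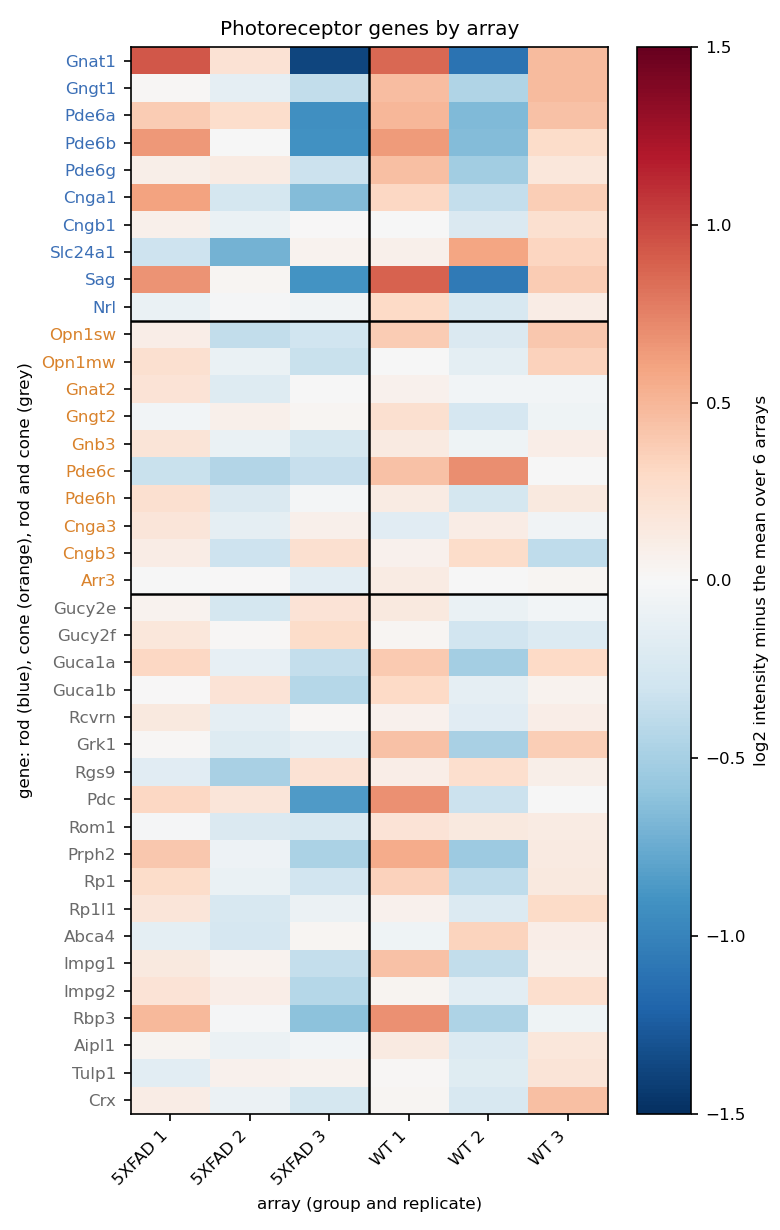
Log2 intensity of each measured photoreceptor gene in each array, minus the gene's mean over the 6 arrays, with red above and blue below that mean; rows are rod genes, cone genes and genes used by both, and columns are the 3 5XFAD and 3 wild-type arrays. Gnat1 and Sag are blue in 5XFAD 3 (7.04 and 6.23) and WT 2 (7.30 and 6.06), while Slc24a1 and Pde6c have their highest value in WT 2 (9.54 and 6.84).

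The rod phosphodiesterase followed the same order. Pde6a, its alpha subunit, had log2 intensities of 6.20, 6.07 and 4.90 in 5XFAD and 6.31, 5.15 and 6.25 in wild type. Pde6b, the beta subunit, had 6.87, 6.22 and 5.32 against 6.86, 5.57 and 6.50. In both genes 5XFAD replicate 3 and wild type replicate 2 were the lowest of their groups and the groups overlapped. Pde6g, the inhibitory subunit, varied less, with 6.56, 6.59 and 6.15 against 6.91, 5.95 and 6.64. Cnga1, the alpha subunit of the rod channel, had 5.96, 5.09 and 4.70 against 5.66, 5.00 and 5.72, and Gngt1, the rod transducin gamma subunit, had 4.28, 4.12 and 3.89 against 4.72, 3.81 and 4.74. These genes repeated the order of Gnat1 at their lowest arrays. Cngb1, the beta subunit of the rod channel, and Nrl, the factor that sets rod identity, were flatter, between 6.21 and 6.67 and between 5.54 and 6.08 over the 6 arrays.

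Among genes used by rods and cones, the same 2 arrays were low for several proteins of the matrix between retina and RPE and for 1 of the 2 disc rim proteins, Prph2. Rbp3, which carries retinoids through that matrix, had log2 intensities of 7.51, 7.01 and 6.42 in 5XFAD and 7.71, 6.56 and 6.96 in wild type. Prph2, the disc rim protein peripherin 2, had 7.52, 7.04 and 6.64 against 7.67, 6.57 and 7.26. Pdc, phosducin, which binds the transducin beta and gamma subunits, had 6.35, 6.22 and 5.19 against 6.72, 5.72 and 6.04. The groups overlapped in each of these genes. The matrix proteoglycan genes Impg1 and Impg2, the microtubule protein gene Rp1, the cyclase activators Guca1a and Guca1b and the factor gene Crx also had both lowest values in these arrays, over smaller ranges. Grk1, the kinase that phosphorylates activated opsin, had 5.94, 5.72 and 5.78 against 6.36, 5.43 and 6.29, low in wild type replicate 2 but with 5XFAD replicate 3 between the other two. Recoverin (Rcvrn), the calcium sensor that restrains this kinase, lay between 5.55 and 5.87 over the 6 arrays. Narrow ranges were also found for Aipl1, a chaperone of phosphodiesterase (5.11 to 5.49), Tulp1, a trafficking protein (5.74 to 6.11), and Rp1l1, a relative of Rp1 (5.40 to 5.92).

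Counted over the set, 19 of the 39 genes had 5XFAD replicate 3 as the lowest 5XFAD array and wild type replicate 2 as the lowest wild-type array, an order chosen for counting after the values were seen. Of all genes 10.3% had that order. It was found in 7 of 10 rod genes, 9 of 19 genes used by both and 3 of 10 cone genes. A within-group standard deviation above the 95th percentile of all genes was found in 15 of the 39, against 5% by construction: 8 of 10 rod genes, 7 of 19 used by both and 0 of 10 cone genes. The median within-group standard deviation was 0.470 for rod genes, 0.207 for cone genes and 0.145 for all genes. The cone signals were dimmer, with 8 of 10 cone genes and 4 of 10 rod genes below the median mean intensity of all genes, and background compresses differences of dim genes. The part of signal level in the smaller cone spread was not tested.

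As list means, each gene taken relative to its own mean over the 6 arrays, rod genes stood at 0.30, -0.06 and -0.54 in 5XFAD replicates 1 to 3 and at 0.45, -0.47 and 0.33 in wild type replicates 1 to 3. The cone genes stood at 0.09, -0.18 and -0.11 and at 0.14, 0.01 and 0.05. The lowest array for cones was thus 5XFAD replicate 2, and in wild type replicate 2, low for rods, the mean of the cone genes was close to their mean over all arrays. That average joined unlike genes, since this array was the lowest wild-type array in 6 of 10 cone genes (Opn1sw, Opn1mw, Gngt2, Gnb3, Pde6h and Arr3), against 33.9% of all genes, and the highest in Pde6c, Cnga3 and Cngb3. It was the lowest wild-type array in 9 of 10 rod genes. The bipolar cell genes, which mark the next neurons of the retina, ran from -0.10 to 0.12, and the amacrine cell genes from -0.04 to 0.09. The horizontal and ganglion cell lists ran from -0.09 to 0.12 and from -0.09 to 0.11. In 5XFAD replicate 3 and wild type replicate 2, the arrays low for rods, the means were -0.074 and 0.014 for bipolar, -0.015 and 0.093 for amacrine, -0.050 and -0.061 for horizontal and -0.032 and -0.093 for ganglion cell genes. The ganglion list thus had its lowest value in wild type replicate 2, and the bipolar list its second lowest in 5XFAD replicate 3, over ranges smaller than that of the rod genes. Below the median mean intensity of all genes were 9 of 12 bipolar and 8 of 10 amacrine cell genes. So were 5 of 5 horizontal and 7 of 11 ganglion cell genes. The part of signal level in the smaller ranges of these lists was not tested. Müller glia genes were highest in 5XFAD replicate 1 (0.36) and lowest in wild type replicate 3 (-0.24). Skeletal muscle genes also varied widely. Their highest mean was in 5XFAD replicate 1 (0.88) and their lowest in wild type replicate 1 (-0.75), which for rods was the highest array. The order counted above, with 5XFAD replicate 3 and wild type replicate 2 lowest in their groups, was found in 8 of 16 muscle genes (10.3% of all genes). A within-group standard deviation above the 95th percentile of all genes was found in 14 of the 16, and the list median was 0.652. Neither trait was thus particular to photoreceptor genes.

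**Figure D2:**
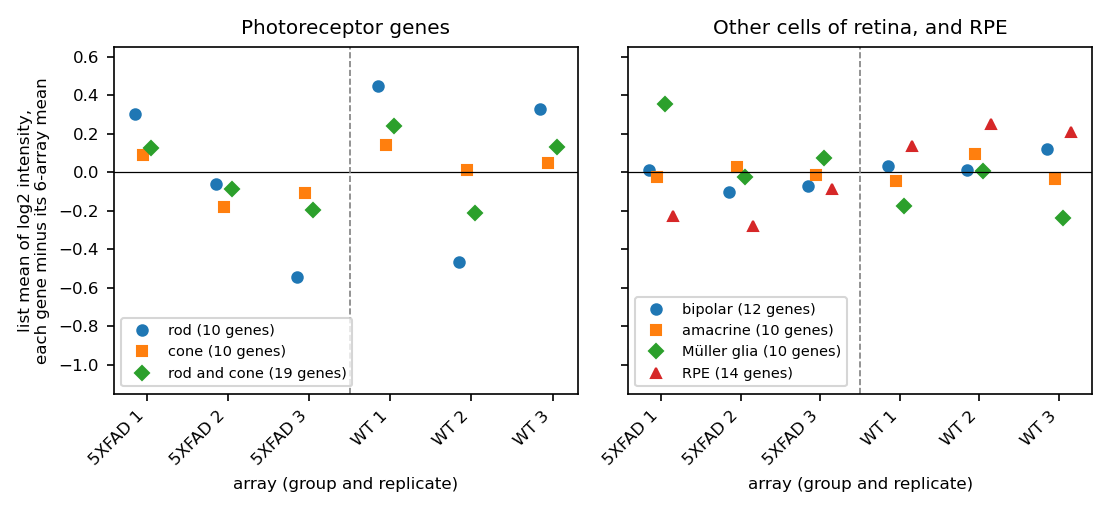
Mean log2 intensity of each gene list per array, each gene minus its mean over the 6 arrays; the left panel has rod genes, cone genes and genes used by both, the right panel bipolar, amacrine, Müller glia and RPE genes, and a dashed line parts the genotypes. Rod genes run from -0.54 in 5XFAD 3 to 0.45 in WT 1, bipolar genes stay between -0.10 and 0.12, and the 3 RPE values of 5XFAD lie below the 3 of wild type.

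The genotype comparison asked whether photoreceptor transcripts of this tissue differed between aged 5XFAD and wild-type mice. None of the 39 genes passed the threshold of 0.05 over all genes (limma, lowest Benjamini-Hochberg adjusted p = 0.345, for Pde6c), where 0.0225% of all genes did. At an unadjusted p under 0.05 limma gave 3 lower genes, Pde6c, Slc24a1 and Rom1, and 1 higher gene, Gucy2f. The lower genes were 7.69% of the 39, against 3.39% of all genes, and the higher gene was 2.56%, against 2.89%. The 5XFAD arrays were wholly below the wild-type arrays in 3 of the 39 genes, against 6.62% of all genes, and wholly above them in 0, against 4.72%. Differences were negative in 33 of 39 genes, against 52.8% of all genes, with 10 of 10 rod genes, 6 of 10 cone genes and 17 of 19 genes used by both. Genes that share the same arrays do not give independent signs. The median difference was -0.16 log2 units for rod genes, -0.05 for cone genes and -0.10 for genes used by both, against -0.01 for all genes.

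The rod median rested on single arrays. Leaving out 5XFAD replicate 3 made it 0.07 and leaving out 5XFAD replicate 1 made it -0.46. Among wild-type arrays it became 0.01 when replicate 1 was left out, -0.53 for replicate 2 and -0.05 for replicate 3. With 5XFAD replicate 3 and wild type replicate 2 both left out, a choice made after the data were seen, it was -0.19. For Gnat1 the mean log2 intensity was 8.34 ± 1.18 in 5XFAD and 8.49 ± 1.05 in wild type (SD, n = 3 per group), a difference of -0.15 with a 95% interval from -1.52 to 1.21. The interval of Sag ran from -1.25 to 0.99 and that of Rbp3 from -0.81 to 0.61. Genotype differences of these genes smaller than their intervals were not detectable with 3 arrays per group. The number of genes lower at an unadjusted p under 0.05 was 5 without 5XFAD replicate 1, 5 when 5XFAD replicate 3 was left out and 7 without wild type replicate 2 (2.71%, 3.13% and 4.72% of all genes), while none was higher in these fits, in which 2.48%, 3.32% and 3.77% of all genes were. Without wild type replicate 3 none was higher either (2.52% of all genes), and 3 were lower (2.78%). With 5XFAD replicate 3 and wild type replicate 2 both left out 6 were lower (4.58%) and 0 higher (4.59%). Across these fits the lower genes were drawn from Pde6c, Slc24a1, Rom1, Opn1sw, Gngt1, Grk1, Rgs9, Abca4, Nrl and Cnga1.

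**Figure D3:**
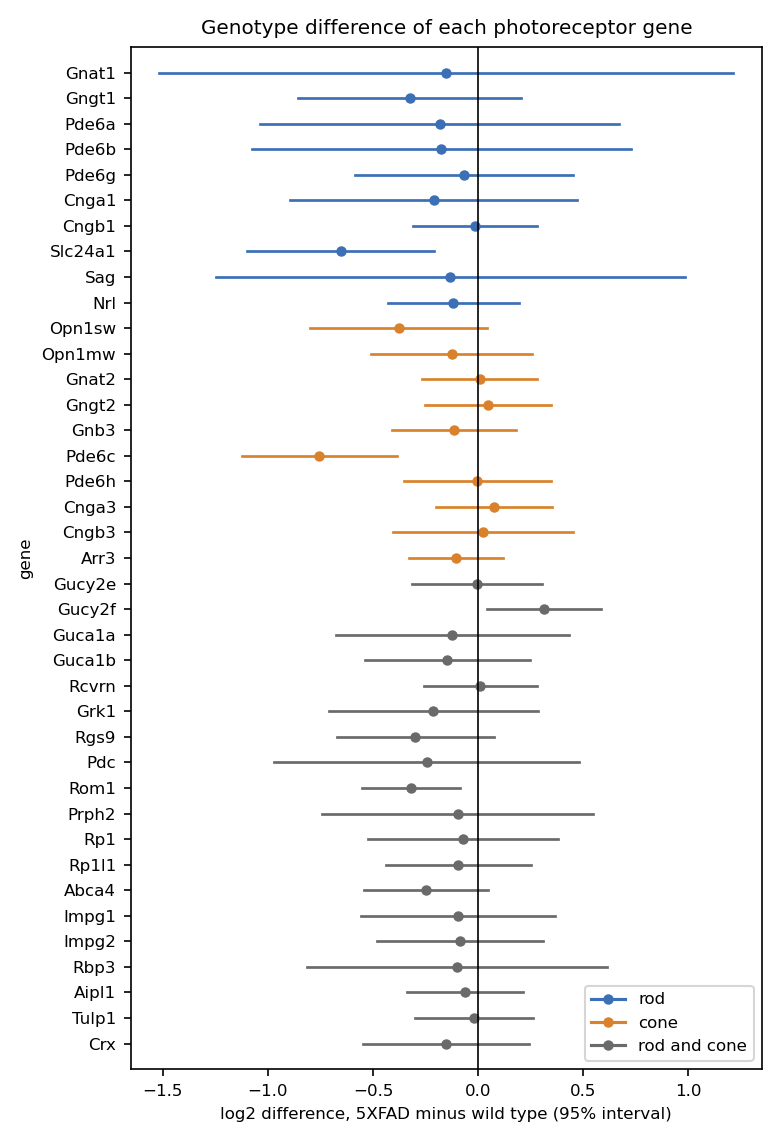
Log2 difference (5XFAD minus wild type) of each measured photoreceptor gene, with points for the limma estimate and bars for its 95% interval, n = 3 arrays per group; colours part rod genes, cone genes and genes used by both. The widest intervals are those of Gnat1 (-1.52 to 1.21) and Sag (-1.25 to 0.99), and those of Pde6c, Slc24a1 and Rom1 lie below 0 and that of Gucy2f above it before adjustment over all genes.

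The genes of smallest p did not share the rod array pattern. In part this follows from the test, since that pattern widens the within-group spread and a wider spread raises p. Pde6c, the catalytic subunit of the cone phosphodiesterase, had log2 intensities of 5.81, 5.70 and 5.80 in 5XFAD and 6.59, 6.84 and 6.14 in wild type. Every 5XFAD array was below the lowest wild-type array, and wild type replicate 2 was the highest. The difference was -0.76 ± 0.16 (SE), a level 0.592-fold that of wild type (limma, Benjamini-Hochberg adjusted p = 0.345, unadjusted 0.0012). It ran from -0.95 to -0.60 with each array left out in turn. Slc24a1, the sodium, calcium and potassium exchanger of rods, had 8.63, 8.23 and 9.00 against 9.02, 9.54 and 9.27. Its groups were apart by a narrow margin, and it too was highest in wild type replicate 2, the array where Gnat1 and Sag were lowest of the wild type. Its difference was -0.65 ± 0.20, a 0.635-fold level (limma, Benjamini-Hochberg adjusted p = 0.589).

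Rom1, a disc rim partner of peripherin 2, had log2 intensities of 7.02, 6.82 and 6.81 against 7.25, 7.19 and 7.16, with the groups apart. Its difference was -0.32 ± 0.10 (limma, Benjamini-Hochberg adjusted p = 0.635), and its within-group standard deviation (0.091) was among the smaller ones of the set, at percentile 18.2 of all genes. Gucy2f, a guanylate cyclase that restores cyclic GMP after light, had 7.82, 7.66 and 7.93 against 7.67, 7.36 and 7.44, with the groups overlapping by a narrow margin. Its difference was 0.31 ± 0.12 (limma, Benjamini-Hochberg adjusted p = 0.729). The other retinal cyclase gene, Gucy2e, differed by -0.01 ± 0.14. Abca4, the transporter that clears retinoid from discs, had 8.96, 8.85 and 9.14 against 9.04, 9.44 and 9.21, a difference of -0.25 ± 0.13. Rgs9, which speeds the shut-off of transducin, had 9.19, 8.87 and 9.58 against 9.47, 9.62 and 9.46, a difference of -0.30 ± 0.17. In both the groups overlapped and wild type replicate 2 was the highest array.

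Wild type replicate 2 was the highest wild-type array in 6 of the 39 genes (Slc24a1, Pde6c, Abca4, Rgs9, Cnga3 and Cngb3), against 36.8% of all genes, and in 7 of 14 RPE genes. The RPE list was lower in 5XFAD, with 13 of 14 differences negative (52.8% of all genes) and a median of -0.46. Its list means ran from 10.34 to 10.52 in 5XFAD against 10.75 to 10.86 in wild type. Of these 14 genes 11 were lower at an unadjusted p under 0.05 (limma), against 3.39% of all genes, and 0 passed over all genes. Among them were the retinoid enzyme gene Rdh10 (-0.60 ± 0.10), the peropsin gene Rrh (-0.64 ± 0.11) and the lactate transporter gene Slc16a8 (-0.61 ± 0.10). Peropsin is an opsin relative of the RPE. The 1 positive difference of the RPE list was that of Best1 (0.26 ± 0.12). The part of the RPE signal in the lower values of Pde6c, Slc24a1, Rom1, Abca4 and Rgs9 was not tested. The surface epithelium list had higher means in the same arrays, from 6.48 to 7.12 in 5XFAD against 5.70 to 5.76 in wild type. Of its 12 measured genes 7 were higher at an unadjusted p under 0.05 (limma), against 2.89% of all genes, while 3 had negative differences. Over all genes 4 of the 12 passed the threshold, all higher in 5XFAD (limma, lowest Benjamini-Hochberg adjusted p = 0.00178). Of all genes 0.0225% passed it. In the skeletal muscle list the median difference was 0.45, with 3 of 16 differences negative (52.8% of all genes). At an unadjusted p under 0.05 limma gave 4 higher muscle genes (2.89% of all genes) and 0 lower (3.39%), and 0 passed over all genes. The parts of the surface epithelium and muscle signals were not tested either.

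The opsins and the remaining cone genes lay below the median mean intensity of all genes, except Gngt2, which stood at percentile 54.0. Opn1sw, the short-wavelength cone opsin, had log2 intensities of 5.91, 5.44 and 5.50 in 5XFAD and 6.18, 5.59 and 6.21 in wild type, a difference of -0.38 ± 0.19 with overlapping groups (limma, Benjamini-Hochberg adjusted p = 0.842). Opn1mw, the middle-wavelength opsin, lay between 3.41 and 4.08 in all arrays, and Arr3, the cone arrestin, between 3.50 and 3.78. Gnat2, the cone transducin alpha subunit, had 5.10, 4.70 and 4.89 against 4.96, 4.86 and 4.85, with a difference of 0.01 ± 0.12. The groups of Gnat2 overlapped, and neither array low for Gnat1 was the lowest of its group. The cone channel genes Cnga3 and Cngb3 differed by 0.08 ± 0.12 and 0.02 ± 0.19, the phosphodiesterase inhibitor Pde6h by -0.003 ± 0.15, and the transducin subunits Gngt2 and Gnb3 by 0.05 ± 0.13 and -0.12 ± 0.13. Gnb3 is also used by bipolar cells.

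Rod and cone partners of the same transduction step were then set side by side. In 8 pairs the cone gene minus the rod gene was taken within each array, which removes a shift common to both, and compared between genotypes. For Gnat1 and Gnat2 this value was -4.24, -3.94 and -2.15 in 5XFAD and -4.32, -2.45 and -4.04 in wild type, so the array spread of the rod gene remained while the groups overlapped. Levels of different probe sets are not comparable, and the differences between arrays are read from these values, not their size. The genotype difference of the cone gene relative to the rod gene was largest for Pde6c, at -0.57 relative to Pde6a and -0.58 relative to Pde6b, and was 0.37 for Gngt2 relative to Gngt1 and 0.29 for Cnga3 relative to Cnga1. The other 4 pairs lay between 0.03 and 0.16. None of the 8 differed past the threshold (exact two-sided permutation test, lowest p = 0.2, Benjamini-Hochberg adjusted over the pairs 0.96), and with 3 against 3 arrays the test cannot go below 0.1.

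**Figure D4:**
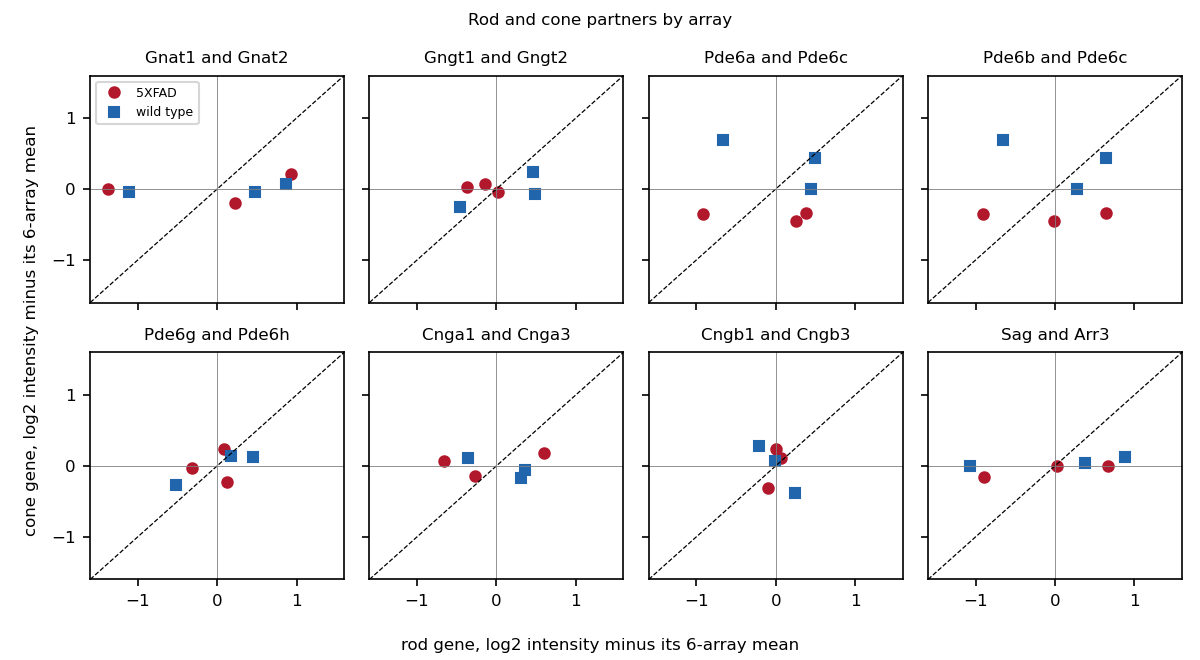
Rod gene (x axis) against its cone partner (y axis) in the 6 arrays, both as log2 intensity minus the gene's mean over the arrays, with red circles for 5XFAD, blue squares for wild type and a dashed line of equal change. Points of Gnat1 and Gnat2 and of Sag and Arr3 spread along the rod axis, and the 3 5XFAD values of Pde6c (5.70 to 5.81) lie below the 3 wild-type values (6.14 to 6.84).

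To see the genotype differences net of the rod level of each array, Gnat1 was added to the limma fit as a covariate, an alternative chosen after the data were seen. The standard error became smaller in 30 of the other 38 genes (78.9%), against 30.3% of all genes. Gnat1 was taken for its wide array spread, so that smaller errors in genes that vary with it follow from that choice. It went from 0.496 to 0.143 for Sag, from 0.400 to 0.109 for Pde6b and from 0.380 to 0.122 for Pde6a, with differences of -0.01, -0.08 and -0.09. The fit's median ratio of the plain to the adjusted standard error was 1.67 in rod genes, 1.04 in cone genes and 1.21 in genes used by both. For all genes it was 0.963. Pde6c (-0.77 ± 0.16), Slc24a1 (-0.69 ± 0.16), Rom1 (-0.31 ± 0.11) and Gucy2f (0.32 ± 0.13) kept their size, and Opn1sw (-0.34 ± 0.14) and Abca4 (-0.27 ± 0.11) were then also under an unadjusted p of 0.05. That made 5 lower genes, against 3.29% of all genes, and 1 higher, against 2.95%. None passed over all genes (limma, lowest Benjamini-Hochberg adjusted p = 0.336, for Pde6c).

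**Figure D5:**
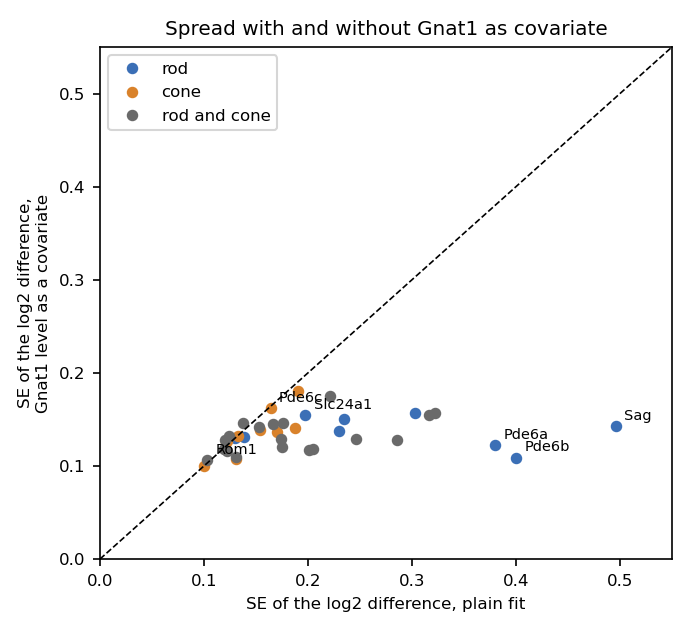
Standard error of the log2 genotype difference in the fit with the Gnat1 level as a covariate (y axis) against that in the plain fit (x axis), 1 point for each of 38 photoreceptor genes, with a dashed line of equality. Sag, Pde6a and Pde6b fall far below the line (0.496 to 0.143 for Sag), while Pde6c and Rom1 lie near it.

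Of 32 further photoreceptor genes outside the set, chosen for the outer segment, cilium, synapse and transcription, 30 were measured. Their median difference was -0.08, with 20 of 30 negative, against 52.8% of all genes. At an unadjusted p under 0.05 limma gave 2 lower (3.39% of all genes) and 0 higher (2.89%), and 0 passed the threshold over all genes. Cdhr1, a cadherin at the base of the outer segment, had log2 intensities of 7.93 in each 5XFAD array and 8.79, 8.92 and 8.66 in wild type. Its difference was -0.86 ± 0.10 (limma, Benjamini-Hochberg adjusted p = 0.0503), and like Pde6c it was highest in wild type replicate 2. Unc119, which ferries lipid-modified transducin, had 7.89, 8.10 and 7.97 against 8.37, 8.57 and 8.32, a difference of -0.43 ± 0.11 (limma, Benjamini-Hochberg adjusted p = 0.454), and Rorb, a receptor gene of photoreceptor development, differed by -0.30 ± 0.14. The order of the rod genes, with 5XFAD replicate 3 and wild type replicate 2 lowest in their groups, was found in 11 of the 30 (10.3% of all genes).

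The bipolar list had a median difference of -0.10, with Grik1 (-0.58 ± 0.15), Sebox (-0.33 ± 0.14) and Grm6 (-0.26 ± 0.12) of smallest p. Of its 12 genes 2 were lower at an unadjusted p under 0.05 (limma), against 3.39% of all genes. In the Müller glia list, Slc1a3, the glial glutamate transporter gene, had log2 intensities of 6.16, 5.11 and 6.05 in 5XFAD and 4.77, 5.10 and 4.48 in wild type, a difference of 0.99 ± 0.26. Dkk3 differed by 0.51 ± 0.15 and Aqp4, the glial water channel gene, by 0.51 ± 0.20. These 3 of 10 Müller genes were higher at an unadjusted p under 0.05 (2.89% of all genes) and none was lower (3.39%). None passed over all genes (limma, lowest Benjamini-Hochberg adjusted p = 0.500). Glul, the glutamine synthetase gene of the same list, differed by -0.04 ± 0.10, and other cells of this tissue may express genes of the list.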

How the data were processed

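Biotin-labelled cDNA from total RNA was measured on Affymetrix arrays, per the labels. The authors deposited 1 log2 intensity for each probe set, from RMA (background correction, quantile normalization and probe summary) in Expression Console 1.1, per the submitters' processing notes. These values were used unchanged. Array medians lay between 5.59 and 5.71. A platform annotation gave 23521 of 33793 probe sets 1 symbol; probe sets with several or none were not used. The probe set of highest mean was kept per gene (22180 genes).

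The genotype difference came from lmFit and eBayes of limma 3.58.1 (R 4.3.3), two-sided and with no covariate, on 4 residual plus 5.23 prior degrees of freedom. Benjamini-Hochberg adjustment covered all genes, at a threshold of 0.05. The step was tested on simulated data in which each gene was drawn independently, so array differences shared by many genes were not part of that test. Any of the 40 genes could be named, and of each other list the 3 genes of smallest p. Glul and Best1 were chosen after their values were seen. The genes and lists were chosen with earlier results of these data known, so counts are read beside those of all genes and no list was tested. Protein sequences were not used here. The alternatives included a replicate block, filters on dim genes, other normalizations, another prior, array weights, the mean of probe sets and each array left out.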

Additional observations from a re-analysis of the deposited data

How the results depend on the processing

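None of the 39 genes passed the adjusted threshold under any of the 16 alternatives (limma, lowest Benjamini-Hochberg adjusted p = 0.13, for Pde6c without wild type replicate 3). The 8 pairs could not pass in any setting run for them, because their exact test cannot go below 0.1 with 3 against 3 arrays or fewer. The count of genes lower at an unadjusted p under 0.05 ran from 3 to 7, and of those higher from 0 to 1, with each array left out in turn. With array weights the higher count was 0, with 5XFAD replicate 3 and wild type replicate 2 both left out the counts were 6 lower and 0 higher, and with the Gnat1 covariate 5 were lower. The cone median was -0.35 without the dimmest 50% of genes, which left 2 cone genes. With the replicate number as a block the counts were 4 lower and 1 higher, and no member passed (limma, lowest Benjamini-Hochberg adjusted p = 0.285). The shares of all genes were not taken for the block and array weights fits, nor for the fits without 5XFAD replicate 2 or without wild type replicate 1. The counts of these fits are not read as results about the set. Same-numbered arrays deviated from their group means with correlations of -0.056, -0.05 and 0.128, so they were taken to share only a number. The sign of 12 genes, Pde6c, Slc24a1, Rom1, Gucy2f, Opn1sw, Gngt1, Gnb3, Cnga3, Arr3, Grk1, Rgs9 and Abca4, held in every alternative run for them. The other 27, none of them past the threshold, changed sign in at least 1 alternative. With single arrays left out their ranges were Gnat1 (-0.74 to 0.50), Pde6a (-0.56 to 0.23), Pde6b (-0.54 to 0.23), Pde6g (-0.35 to 0.14), Cnga1 (-0.57 to 0.063), Cngb1 (-0.13 to 0.10), Sag (-0.70 to 0.28), Nrl (-0.27 to 0.0045), Opn1mw (-0.28 to 0.013), Gnat2 (-0.095 to 0.11), Gngt2 (-0.066 to 0.18), Pde6h (-0.14 to 0.11), Cngb3 (-0.16 to 0.19), Gucy2e (-0.11 to 0.12). They were likewise Guca1a (-0.41 to 0.045), Guca1b (-0.29 to 0.033), Rcvrn (-0.074 to 0.083), Pdc (-0.46 to 0.12), Prph2 (-0.40 to 0.16), Rp1 (-0.28 to 0.083), Rp1l1 (-0.22 to 0.026), Impg1 (-0.30 to 0.10), Impg2 (-0.21 to 0.11), Rbp3 (-0.36 to 0.22), Aipl1 (-0.18 to 0.0085), Tulp1 (-0.11 to 0.070), Crx (-0.31 to 0.034). Further sign changes were Gnat2 -0.00073, Gngt2 -0.036, Cngb3 -0.0057 and Rcvrn -0.0043 with array weights, Pde6h 0.010 after another quantile normalization and 0.018 with the Gnat1 covariate, and, with both low arrays left out, Gnat2 -0.0061, Gngt2 -0.070, Rcvrn -0.077 and Impg2 0.0025. The number of arrays limits all of these values, and the cause of the array differences was not tested.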
